A study of Homo sapiens with 8 samples.

Results

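Long intergenic non-coding RNAs that carry a LINC number were examined in human EndoC-βH5 beta cells with and without pro-inflammatory cytokines. The genes were chosen as rows of the deposited table with the biotype lncRNA, a symbol of LINC followed by digits only, and a mean of at least 1 CPM (the unit of the table, read counts scaled to the same library total) over the 4 control and 4 cytokine libraries. Of 16525 listed genes 175 met this rule, with 174 symbols, since LINC01238 names 2 gene identifiers. A further 67 LINC rows of the same biotype had a lower mean, and 14 rows with a LINC name had another biotype. They were thus selected on their measured mean level in the libraries compared below. Of the 175, 146 reached a mean of 1 CPM in both conditions, 24 in the control libraries only and 5 in the cytokine libraries only, and the last 29 entered through the condition in which they were higher.

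EndoC-βH5 is a single established line, derived from fetal pancreatic rudiments with SV40LT and hTERT transgenes that were later removed. Control cells were untreated, and the cytokine group was exposed to IL-1β, IFNγ and TNFα together for 48 h, with 4 libraries in each group. No label says that the libraries came from separate cultures, so p-values measure the spread between these libraries. By the first part of the column names, 1 control and 1 cytokine library belong together in each case, which gives the pairs A, B, C and D. A and B have a common name ending, as do C and D.

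Reads on the listed genes ranged from 36577438 to 40117636 per library, and where no read was counted a level of up to 3 reads, or 0.0587 to 0.0641 CPM, is allowed by counting error alone. All 11 beta-cell markers of the list used were listed, with a summed level of 23838 to 36319 CPM in control and 29207 to 52709 CPM in cytokine libraries, most of it from CHGA and IAPP. Within this list MAFA (log2 fold change -2.27, adjusted p in limma 2.12e-05), G6PC2 (-2.60), SLC30A8 (-1.20), PDX1 (-0.78) and NKX2-2 (-0.52, adjusted p = 0.0419) were called lower on the deposited scale, and the other 6, INS and CHGA among them, were not called. None of the 3 immune markers was listed. Of the other lists, 4 of 4 alpha-cell markers were listed (sums of 1717 to 2985 CPM in control and 2070 to 2927 CPM in cytokine libraries), 2 of 2 delta-cell markers (361 to 2158 and 473 to 1992 CPM), 2 of 2 PP and epsilon markers (3.83 to 7.35 and 3.78 to 5.83 CPM), 1 of 4 acinar markers (7.47 to 9.04 and 2.82 to 5.04 CPM), 1 of 3 ductal markers (79.9 to 159 and 79.5 to 163 CPM) and 2 of 5 stromal and endothelial markers (3.56 to 5.30 and 4.29 to 6.41 CPM). The proliferation markers MKI67 and TOP2A together ranged from 58.2 to 163 CPM in control and from 16.2 to 50.5 CPM in cytokine libraries. The part of these markers in any LINC result was not tested. The cytokine response itself was visible in IRF1, a transcription factor induced by IFNγ, which averaged 11.3 ± 1.05 CPM in control and 755 ± 157 CPM in cytokine libraries (SD, n = 4 each).

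LINC RNAs are transcribed like mRNAs, are usually spliced and polyadenylated, and have no known long open reading frame. Some act in the nucleus on the expression of nearby or distant genes, others act in the cytoplasm, for example by binding microRNAs or proteins, and for most no function is known. Their levels are typically low and more restricted to cell types than those of mRNAs. Genes induced by interferons often carry DNA motifs called ISRE and GAS, and IL-1β and TNFα act largely through NF-κB.

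The name was checked against the annotation. GENCODE release 29 on GRCh38 held 171 of the 175 genes, with no entry for LINC01530, LINC02885, LINC01512 and LINC02256. Of the 171, 140 were typed as lincRNA, 18 as processed transcript and 8 as antisense, and 148 overlapped no protein-coding gene. The other 23 did, 14 of them on the same strand, so these are not intergenic in the strict sense. The exons of 10 genes overlapped coding exons on the same strand and those of 6 genes on the opposite strand. Merged exons covered 238 to 27605 bases (median 2767), and 24 genes had a single exon block. Members were found on 23 chromosomes, with 19 on chromosome 1.

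Reads from sequence that genes share cannot be assigned to a single gene with certainty. Among all words of 100 bases, the length of a read, in the transcripts of each gene, 130 of the 171 genes shared none with a transcript of another gene. A further 14 genes shared over 10% of their words and 5 over 50%. These 5 were LINC00261 (84.4%), LINC01001 (73.0%), LINC02887 (56.2%), LINC01002 (53.8%) and LINC02969 (53.3%), and their counts are uncertain to that extent. LINC00261 shared its words with the overlapping annotation AL121722.1.

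RefSeq promoter windows (GRCh38.p14, 250 bases before to 50 bases after a start) were found for 117 of the 175 genes, 136 windows in all. Both strands were searched for the letters GAAANNGAAA (an ISRE), TTCNNNGAA (a GAS element) and GGGNNTTTCC (an NF-κB motif). The ISRE letters stood in 3 of the 136 windows (2.21%), against 3.57% of all 35116 windows in the table. The GAS letters stood in 6 (4.41%, against 7.66%) and the NF-κB letters in 4 (2.94%, against 1.91%). The 3 windows with ISRE letters belonged to LINC00623, LINC01138 and LINC02475, all of them among the genes called higher with cytokines below. Windows existed for 5 of the 9 genes called higher and for 41 of the 50 called lower, and none of the latter, nor of the 71 genes with a window that were not called, held the ISRE letters. The GAS letters were found for 1 of the 5 genes called higher, 2 of the 41 called lower and 3 of the 71 not called, and the NF-κB letters for 0, 1 and 2. A match is a description of these letters and not of a binding site, and no match says only that the letters are absent from the window.

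The 3 windows are printed because they are the ones that hold the ISRE letters, which stand in capitals, and because the first pair are alike over most of their length. They lie at chr1:120912967-120913266 (plus strand), chr1:148459871-148460170 (minus strand) and chr4:44016611-44016910 (plus strand).
LINC00623: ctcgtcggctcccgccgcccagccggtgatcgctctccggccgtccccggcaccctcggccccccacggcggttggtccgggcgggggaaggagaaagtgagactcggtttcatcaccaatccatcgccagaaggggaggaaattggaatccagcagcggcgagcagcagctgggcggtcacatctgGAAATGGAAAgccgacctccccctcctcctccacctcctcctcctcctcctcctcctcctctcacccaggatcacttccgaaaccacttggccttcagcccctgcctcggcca
LINC01138: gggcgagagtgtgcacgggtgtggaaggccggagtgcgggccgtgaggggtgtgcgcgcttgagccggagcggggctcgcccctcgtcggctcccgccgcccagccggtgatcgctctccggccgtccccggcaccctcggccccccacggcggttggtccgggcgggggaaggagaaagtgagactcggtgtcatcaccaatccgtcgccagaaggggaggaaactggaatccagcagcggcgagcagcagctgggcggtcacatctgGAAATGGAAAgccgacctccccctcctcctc
LINC02475: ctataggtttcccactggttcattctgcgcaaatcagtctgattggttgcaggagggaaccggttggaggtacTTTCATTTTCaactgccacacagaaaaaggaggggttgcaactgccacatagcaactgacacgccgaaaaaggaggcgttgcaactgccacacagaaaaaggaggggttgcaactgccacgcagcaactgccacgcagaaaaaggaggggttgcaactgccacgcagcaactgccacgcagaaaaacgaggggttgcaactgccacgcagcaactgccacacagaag
The windows of LINC00623 and LINC01138 could be laid over each other without gaps for 218 bases, of which 215 were identical (98.6%). The same letters are thus found in both, at positions 188 to 197 of the LINC00623 window and 270 to 279 of the LINC01138 window, counted from 1 at its start. Because the sequence is alike, these matches are not independent observations. In the LINC01138 window the match lies after the RefSeq start, and that window lies inside the GENCODE span of the gene and at neither end of it. In the LINC02475 window the match stood at positions 74 to 83 and was read on the opposite strand. This window also holds the word AACTGCCAC 9 times. None of the 3 matches overlapped a GAS or NF-κB match.

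Mean levels of the 175 genes ran from 1.0006 to 74.5 CPM with a median of 3.20 CPM, and 59 lay below 2 CPM. They held 0.147% of the reads on listed genes, and the 8 genes of highest mean made up 31.3% of their sum. The summed level was 1346, 1296, 1185 and 1259 CPM in control libraries A to D and 1093, 1109, 840 and 1045 CPM in cytokine libraries A to D. Every cytokine library thus lay below every control library, and library C was lowest in both groups. At the limit of the rule, LINC01982 (1.0006 CPM), LINC02616 (1.0012 CPM) and LINC02731 (1.0048 CPM) were just inside, and LINC01126 (0.987 CPM), LINC01515 (0.972 CPM) and LINC02193 (0.971 CPM) just outside.

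Per kilobase of merged exon in GENCODE, levels ranged from 0.0589 to 26.0 CPM with a median of 1.56 CPM. LINC00958, which has been studied as a cancer-associated lncRNA, was highest on this scale as well as in CPM. It measured 49.0, 62.8, 88.1 and 75.8 CPM in control libraries A to D and 71.7, 68.2, 101 and 79.7 CPM in the cytokine libraries. The groups overlapped, and its log2 fold change of 0.23 ± 0.19 (SE) was not called (adjusted p = 0.384). LINC01278, an X-linked gene with SPIN4 inside its span, was second at 11.7 CPM per kilobase.

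Genes with short exons in GENCODE moved up the order on the per-kilobase scale. The reads were counted on Ensembl gene models, whose exons can differ from these. The effect of such differences on the order was not tested. LINC02100 had a mean of 2.58 CPM over 238 bases of annotated exon, which gave 10.9 CPM per kilobase and the third place, and LINC01574 had 5.73 CPM over 560 bases, which gave 10.2. LINC00511, at 31.4 CPM, had the longest merged exons (27605 bases) and only 1.14 CPM per kilobase.

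Cytokine exposure was followed by lower levels of many LINC RNAs and higher levels of a few. In limma on log2(CPM + 0.1), with an absolute log2 fold change above 0.5 and a Benjamini-Hochberg adjusted p below 0.05 over all listed genes, 50 of the 175 were called lower (28.6%) and 9 higher (5.14%), while 116 were not called. Over all listed genes 17.5% were called lower, 9.52% higher and 27% either way. The median log2 fold change was -0.45 over the LINC genes and -0.17 over all genes. All 59 called genes moved in the same direction in each of the 4 pairs and in both name endings taken alone. For the 47 falls and 8 rises whose groups did not overlap this had to be so, and it is no separate evidence. Of the 146 genes that averaged 1 CPM or more in both conditions, 40 were called lower and 5 higher.

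**Figure D1:**
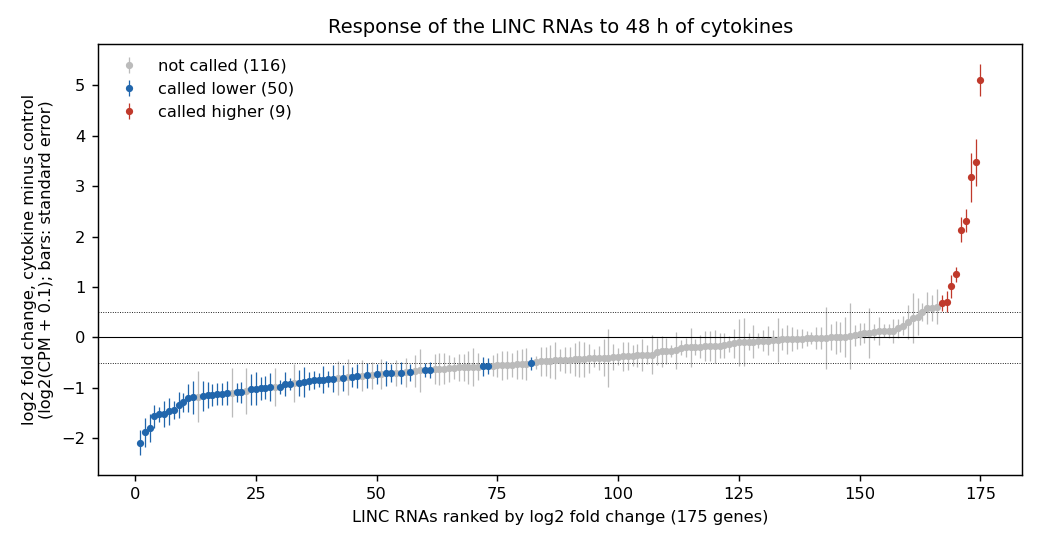
The 175 LINC RNAs are ranked along the horizontal axis by log2 fold change (cytokine minus control, vertical axis, on the log2(CPM + 0.1) scale), with bars for the standard error, colours for the call and dotted lines at the fold threshold of 0.5. The 9 genes called higher reach 5.11, whereas the 50 called lower end at -2.09.

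The deposited scale lies below others for this comparison, since the median of all genes was -0.17 on it and -0.01 after TMM scaling, which aligns the bulk of genes. With TMM, 36 LINC genes were called lower and 10 higher, against 11.6% lower and 13.1% higher over all genes. All 36 were among the 50, all 9 rises were among the 10, and the LINC median was -0.30. When the pairs were entered as a replicate block, 80 genes were called lower and 12 higher, against 23.8% and 11.6% of all genes, and these included all 50 and all 9.

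Control and cytokine libraries did not overlap for 54 genes that were lower and 9 that were higher with cytokines, against 21.9% and 10.8% of all listed genes. Of the called genes, 47 falls and 8 rises were free of overlap, the exceptions being LINC01918, LINC01012, LINC01963 and LINC01138. The exact permutation test of 4 against 4 libraries cannot give a p below 0.0286 (2-sided), the value for each gene without overlap.

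Calls were spread over the range of levels. Among the 59 genes from 1 to 2 CPM 15 were called lower and 2 higher, among the 56 from 2 to 5 CPM 18 and 3, among the 31 from 5 to 10 CPM 7 and 3, and among the 29 at 10 CPM or more 10 and 1. The median log2 fold changes of these classes were -0.48, -0.55, -0.35 and -0.41. Over all genes that averaged 1 CPM or more 18.1% were called lower and 9.62% higher. Shares of other genes within each class were not computed, so the classes cannot be set against genes of like level.

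Other lncRNAs that averaged 1 CPM or more were counted beside the LINC genes. Of 355 lncRNAs with an antisense name 35.2% were called lower and 4.79% higher, of 187 with a divergent-transcript name 25.7% and 2.67%, and of 647 without a symbol 26.3% and 5.10%. Protein-coding genes gave 16.9% lower and 10.3% higher (n = 12656). The share of falls among LINC genes was therefore near that of all lncRNA genes at this level (28.3% lower and 5.11% higher, n = 1546) and above that of coding genes, and with TMM scaling the shares were 20.6% of LINC genes and 10.9% of coding genes. Coding genes had a median level of 22.03 CPM and LINC genes of 3.20 CPM, and the part of this difference in the shares was not tested. In these bulk libraries less RNA per cell and fewer cells that express a gene cannot be told apart.

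**Figure D2:**
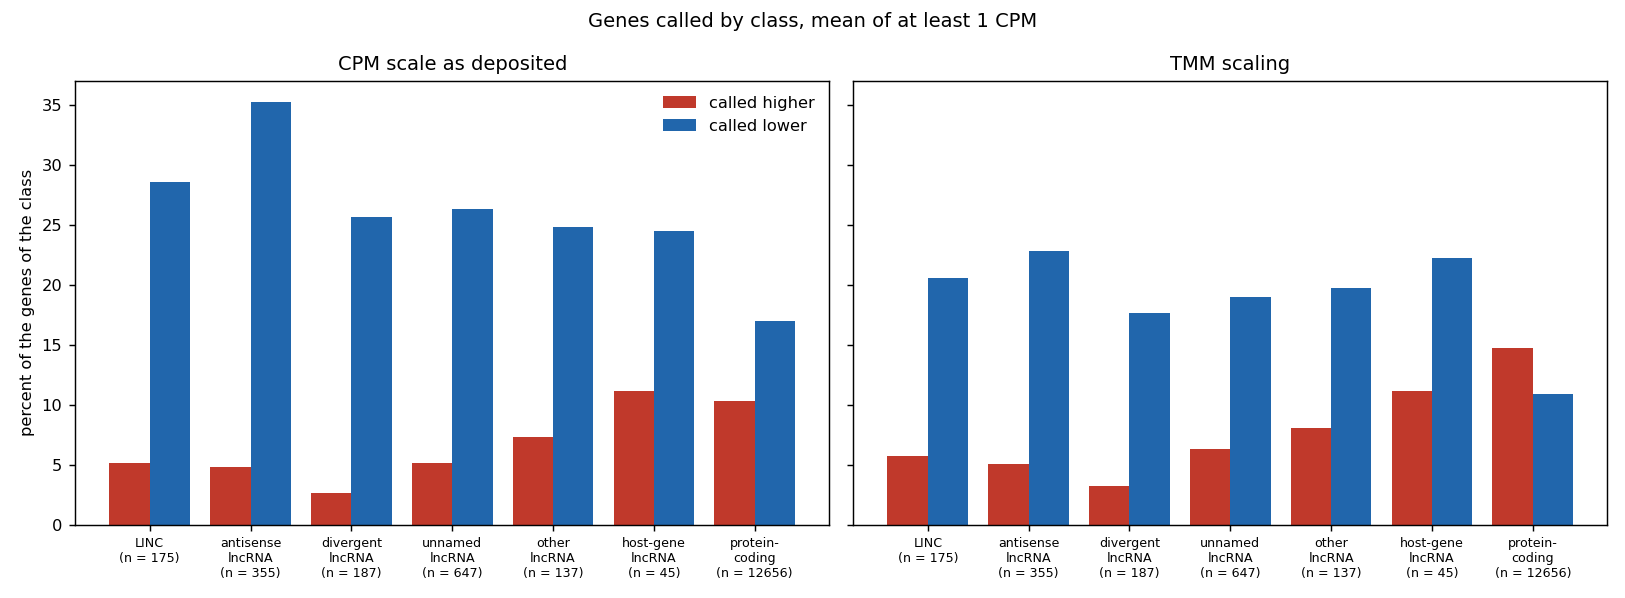
Bars give the percentage of genes called higher (red) and lower (blue) with cytokines in each class of gene that averaged 1 CPM or more, on the deposited CPM scale (left) and after TMM scaling (right). On both scales each lncRNA class has more falls than rises, while coding genes go from 16.9% lower and 10.3% higher to 10.9% lower and 14.7% higher.

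LINC02605 (ENSG00000261618), a gene of 1 exon at chr8:78837529-78840522, had the largest rise. The control libraries A to D held 0, 0.106, 0.0995 and 0.117 CPM, or at most 6 reads each, and the cytokine libraries 5.96, 6.56, 4.11 and 7.41 CPM. The RNA was thus almost undetected without cytokines and present in each treated library. The mean rose 74.5-fold, from 0.0807 ± 0.0543 to 6.01 ± 1.40 CPM (SD, n = 4 each). The log2 fold change in limma was 5.11 ± 0.32 (SE, adjusted p = 7.9e-07). The pseudocount lowers this estimate. On the recovered reads edgeR with TMM gave 6.32 (adjusted p = 4.51e-06), and limma with TMM scaling gave 5.23.

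LINC02616 (chr4:37001816-37020708) likewise went from near 0 to a measurable level. It had 0.107, 0.190, 0.119 and 0 CPM in the control libraries and 2.96, 2.88, 0.846 and 0.904 CPM in the cytokine libraries, where A and B were over 3-fold above C and D. Its log2 fold change was 3.17 ± 0.49 (adjusted p = 0.000734), and edgeR with TMM gave 4.33. Among the 175 genes only LINC02605 and LINC02616 had a mean of at least 1 CPM in 1 condition and below 0.2 CPM in the other. Both passed the rule only through the cytokine libraries, as did LINC02100 and LINC02328, described next. LINC02538, left out by the rule, had the reverse pattern, with means of 1.08 CPM in control and 0.135 CPM in cytokine libraries.

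LINC02100 (chr5:18704433-18746173) measured 0.363, 0.0423, 0.637 and 0.645 CPM in control and 4.28, 5.00, 4.51 and 5.18 CPM in cytokine libraries. The treated libraries were close to each other and the control libraries were not. The mean was 11.2-fold higher with cytokines (log2 fold change 3.47 ± 0.46, adjusted p = 0.000277). LINC02328 (chr14:85934710-86129778) rose from 0.299, 0.317, 0.299 and 0.352 CPM to 1.43, 1.86, 1.43 and 2.33 CPM, a 5.56-fold difference of means (log2 fold change 2.13 ± 0.25, adjusted p = 0.00011).

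LINC01619 (chr12:91984976-92142914, minus strand) rose from 1.26, 1.31, 1.63 and 1.88 CPM to 8.15, 6.30, 6.502 and 11.5 CPM. The lowest treated library was more than 3-fold above the highest control, and the log2 fold change was 2.32 ± 0.23 (adjusted p = 3.72e-05). Its exons overlap those of BTG1, an antiproliferative gene, on the same strand, and 6.13% of its 100-base words also occur in BTG1 transcripts. BTG1 itself rose from 249 ± 27.8 to 408 ± 55.0 CPM (SD, n = 4 each; log2 fold change 0.71, adjusted p = 0.00302). Its log2 fold change was smaller than that of the LINC gene, and its change in CPM was larger. The part of BTG1 reads in the counts of LINC01619 was not tested.

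LINC02475 (chr4:44016861-44022063), 1 of the 3 genes with ISRE letters, had 6.33, 7.43, 7.84 and 7.49 CPM in control and 17.5, 20.2, 14.4 and 17.8 CPM in cytokine libraries. The treated libraries lay well above the controls, with a 2.41-fold difference of means (log2 fold change 1.25 ± 0.15, adjusted p = 0.000122). It was the only called rise among the 29 genes that averaged 10 CPM or more.

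LINC00623 and LINC01138, the chromosome 1 genes with like promoter windows, were both called higher. LINC00623 (chr1:120913275-121009291) went from 2.91, 3.49, 6.05 and 4.58 CPM to 7.15, 7.73, 10.5 and 8.36 CPM (log2 fold change 1.01 ± 0.23, adjusted p = 0.00799). Each of its treated libraries was above every control library. LINC01138 (chr1:148290889-148519604), described after its values were seen, went from 7.21, 7.34, 5.69 and 6.47 CPM to 12.1, 14.5, 7.33 and 11.1 CPM, and here treated library C lay just below control B (log2 fold change 0.71 ± 0.21, adjusted p = 0.0245). Of the 100-base words of LINC00623 47.0% also occur in other genes, most often in LINC00869, and of those of LINC01138 3.05%, so the values of LINC00623 in particular are uncertain.

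LINC02593 (chr1:916865-921016) had the smallest called rise, from 7.91, 5.67, 8.50 and 8.60 CPM to 11.8, 12.9, 11.2 and 13.2 CPM. The groups did not overlap (log2 fold change 0.68 ± 0.17, adjusted p = 0.00984). All 9 rises were called with TMM scaling as well.

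**Figure D3:**
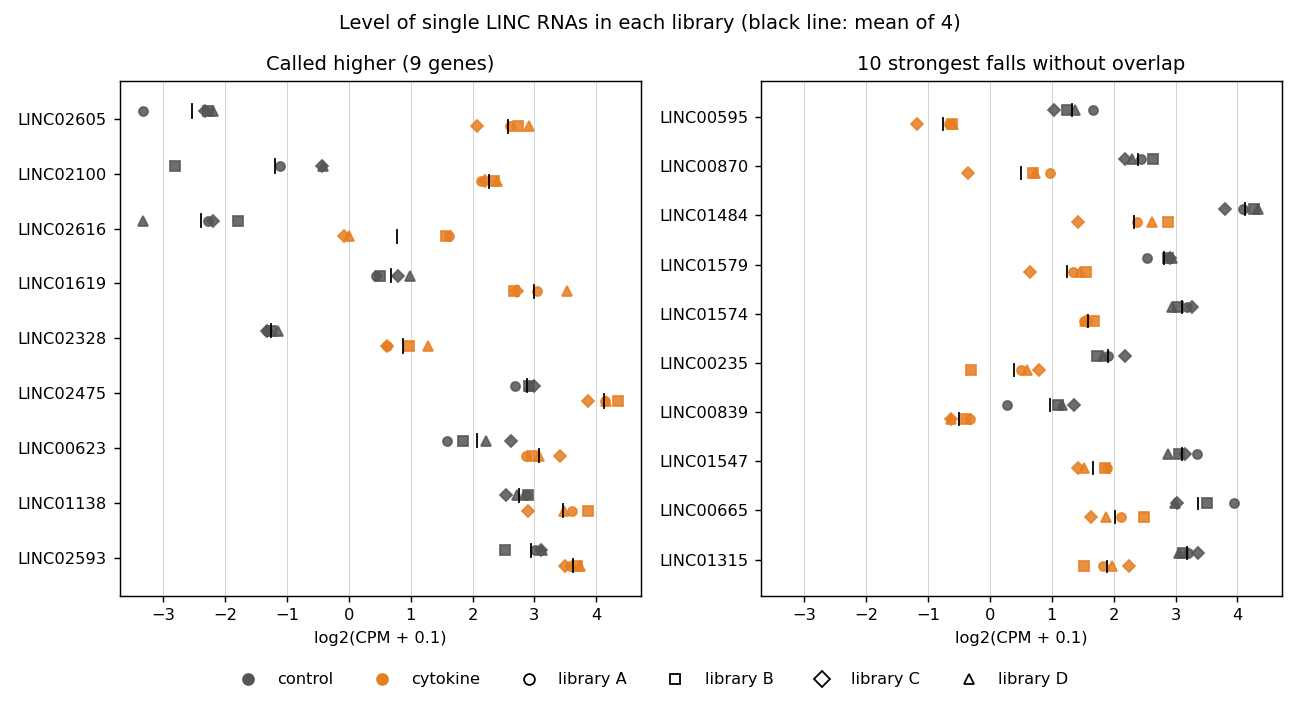
Each point is a library, grey for control and orange for cytokine, with symbols for pairs A to D and a black line for the mean of 4; the horizontal axis is log2(CPM + 0.1). Left are the 9 genes called higher, of which only LINC01138 has overlapping groups, and right the 10 largest falls without overlap.

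Among the falls LINC00595 (ENSG00000230417, chr10:78179185-78551355) was strongest and the only gene below -2. It is among the 10 called falls that passed the rule only through the control libraries, as are LINC00839 and LINC01664 below. Its libraries gave 3.08, 2.26, 1.95 and 2.48 CPM in control and 0.532, 0.555, 0.342 and 0.563 CPM with cytokines. The mean was 4.91-fold lower (log2 fold change -2.09 ± 0.25, adjusted p = 0.000116), and the effect in A and B alone (-2.09) equalled that in C and D alone (-2.09). The median log2 fold change of the 50 falls was -0.98, and 23 of them were below -1.

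LINC00870 (chr3:72151257-72207770) fell from 5.35, 6.14, 4.46 and 4.79 CPM to 1.85, 1.52, 0.684 and 1.55 CPM (log2 fold change -1.88 ± 0.28, adjusted p = 0.00062). LINC01484 (chr5:173707614-173746211), a more abundant gene, fell from 16.9, 19.0, 13.7 and 20.1 CPM to 5.09, 7.26, 2.58 and 6.07 CPM (-1.79 ± 0.28, adjusted p = 0.000827). In both genes library C was the lowest of its group, and no treated library reached a control library. LINC01579 (chr15:93718542-94070820) fell from 5.73, 7.26, 7.41 and 7.55 CPM to 2.43, 2.84, 1.47 and 2.63 CPM (-1.57 ± 0.22, adjusted p = 0.000452).

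LINC01574 (chr5:176743205-176743871) had closely grouped libraries. It measured 9.02, 8.13, 9.56 and 7.55 CPM in control and 2.77, 3.12, 2.88 and 2.81 CPM in cytokine libraries, a spread of 0.898 and 0.156 CPM (SD, n = 4 each). The level fell by 1.53 on the log2 scale (SE 0.16, adjusted p = 3.97e-05).

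LINC00235 (chr16:525155-527407) fell from 3.66, 3.22, 4.46 and 3.46 CPM to 1.32, 0.705, 1.63 and 1.41 CPM (log2 fold change -1.52 ± 0.26, adjusted p = 0.00141). LINC00839 (chr10:42475543-42495336) fell from 1.11, 2.03, 2.47 and 2.13 CPM to 0.703, 0.662, 0.544 and 0.542 CPM (-1.47 ± 0.28, adjusted p = 0.00247), with control A lowest of its group. The remaining 3 of the 10 largest falls without overlap were LINC01547, LINC00665 and LINC01315, all with means above 3 CPM in both groups. LINC00665 (chr19:36313067-36331718) went from 15.2, 11.3, 8.02 and 7.84 CPM to 4.24, 5.49, 3.00 and 3.58 CPM (-1.34 ± 0.25, adjusted p = 0.00263), so that pairs C and D were below A and B in both conditions. LINC01315 (chr22:42364400-42369236) went from 9.09, 8.59, 10.2 and 8.19 CPM to 3.43, 2.78, 4.65 and 3.84 CPM (-1.29 ± 0.18, adjusted p = 0.000453).

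LINC02538, named by the study, lay below the limit with a mean of 0.609 CPM and is not counted among the 175. It had 1.005, 1.31, 1.02 and 0.997 CPM in control and 0.213, 0.0641, 0.161 and 0.1005 CPM in cytokine libraries (log2 fold change -2.37 ± 0.30, adjusted p = 0.000173). LINC01370, also named there, was not among the rows analysed here.

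The 8 genes of highest level changed less than the extremes. LINC00205 was called lower at 46.0, 42.9, 54.2 and 47.6 CPM in control and 25.4, 21.9, 26.1 and 27.1 CPM in cytokine libraries, a 1.90-fold difference of means far outside the spread (log2 fold change -0.92 ± 0.12, adjusted p = 0.000259). LINC00261, a lncRNA next to the endoderm factor gene FOXA2, gave 26.6, 31.3, 41.3 and 31.2 CPM in control and 18.9, 20.7, 24.2 and 23.6 CPM in cytokine libraries (-0.56 ± 0.15, adjusted p = 0.0172). With TMM its log2 fold change was -0.41, below the fold threshold, so the call depends on the scale. The call was also lost without control C (-0.45) and without cytokine A (-0.50). FOXA2, whose start is 6.81 kb away, gave -0.08 (adjusted p = 0.747).

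LINC01128 did not overlap between groups, with 53.1, 51.9, 49.7 and 45.4 CPM in control and 41.2, 36.0, 30.2 and 35.3 CPM in cytokine libraries, but its log2 fold change of -0.49 ± 0.12 (adjusted p = 0.0116) missed the fold threshold. LINC00667 had a mean of 39.4 ± 3.77 CPM in control and 32.8 ± 2.49 CPM in cytokine libraries (SD, n = 4 each; -0.26 ± 0.12, adjusted p = 0.112). The levels of LINC02432 (35.6 ± 1.89 and 35.6 ± 6.68 CPM) and LINC00511 (31.6 ± 1.79 and 31.2 ± 3.23 CPM) differed by less than the spread between libraries, with log2 fold changes of -0.02 ± 0.15 and -0.02 ± 0.12 that were positive with TMM (0.14 each). In LINC02432 treated library C was low at 25.5 CPM, against 38.8 to 39.0 CPM in the other three.

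LINC genes were set beside the nearest protein-coding gene of the table by the distance between starts. The distance was at most 5 kb for 27 of the 171 annotated genes, 20 of which lie head to head with the coding gene, and over 100 kb for 73, with a median of 62.6 kb. Among coding genes that averaged 1 CPM or more 10.3% were called higher and 16.9% lower. Both the LINC gene and its neighbour were called in 16 of the 171 pairs: both higher in 4, both lower in 6, and the LINC gene lower with the neighbour higher in 6. Of the 48 annotated falls 36 had a neighbour that was not called.

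Across pairs the correlation of the log2 fold changes was 0.62 (Pearson) and 0.65 (Spearman) for the 27 starts within 5 kb, and 0.05 and 0.14 for the 73 pairs over 100 kb apart. For the 71 pairs in between it was 0.27 and 0.08. These are descriptions across genes measured in the same libraries, and overlapping annotations are included. In the closest class, 8 of 10 LINC falls had a neighbour that was not called, and the 2 rises, LINC01619 and LINC02593, both had a neighbour that rose.

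**Figure D4:**
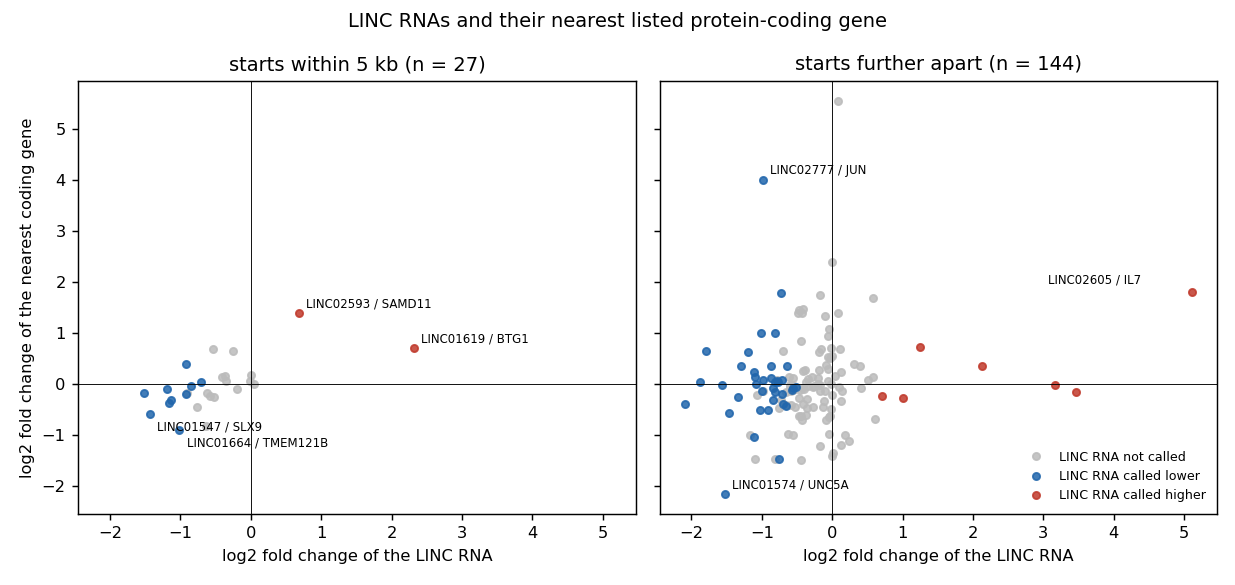
Each point is a LINC RNA, plotted by its log2 fold change (horizontal axis) and that of its nearest listed coding gene (vertical axis), with starts within 5 kb on the left (n = 27) and further apart on the right (n = 144). LINC02593 with SAMD11 and LINC01619 with BTG1 rise in common on the left, and on the right LINC02605 lies with IL7 in the upper right, while LINC02777 fell and JUN rose by 4.01.

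The 5 called LINC genes closest to a coding start all fell and were all head to head with that gene. LINC01547 starts 97 bases from SLX9, a ribosome biogenesis factor. LINC01547 went from 10.1, 8.21, 8.76 and 7.23 CPM to 3.60, 3.52, 2.58 and 2.77 CPM (log2 fold change -1.44 ± 0.18, adjusted p = 0.000197). SLX9 fell less, from 9.26, 9.88, 13.4 and 9.76 CPM to 6.41, 6.07, 8.86 and 6.85 CPM (-0.58 ± 0.18, adjusted p = 0.0299).

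LINC00205 starts 152 bases from POFUT2, an O-fucosyltransferase of the endoplasmic reticulum. While LINC00205 fell as given above, POFUT2 measured 69.6, 61.6, 73.3 and 67.1 CPM in control and 84.2, 79.7, 112 and 82.3 CPM in cytokine libraries, higher in each treated library but below the fold threshold (log2 fold change 0.39 ± 0.13, adjusted p = 0.0458). The bases between the starts of these 2 pairs are printed, on the strand of the LINC gene, to show how little sequence separates RNAs that differed in direction or size of change. They lie at chr21:44939914-44940009 (minus strand, 96 bases, 79.2% G or C) and chr21:45287899-45288049 (plus strand, 151 bases, 73.5% G or C), and none of the 3 motifs was found in the windows of these genes.
LINC01547: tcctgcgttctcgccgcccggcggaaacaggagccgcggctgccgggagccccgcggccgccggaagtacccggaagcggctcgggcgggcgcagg
LINC00205: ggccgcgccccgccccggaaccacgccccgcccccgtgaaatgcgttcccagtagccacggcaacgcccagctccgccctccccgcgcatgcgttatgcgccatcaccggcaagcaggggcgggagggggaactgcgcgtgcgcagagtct

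LINC01664 starts 219 bases from TMEM121B and had 1.90, 0.825, 1.39 and 1.62 CPM in control and 0.788, 0.342, 0.725 and 0.784 CPM in cytokine libraries (log2 fold change -1.02 ± 0.33, adjusted p = 0.0373). TMEM121B fell alongside it (-0.90 ± 0.15, adjusted p = 0.00107). The LINC01664 call was lost with TMM (adjusted p = 0.0685) and without any of 7 of the 8 libraries (adjusted p = 0.0507 to 0.0941), control B being the exception. With the replicate block in limma the call was kept (adjusted p = 0.00143). LINC00235, 310 bases from CAPN15, and LINC01521, 545 bases from the transcription factor gene PATZ1, fell beside coding genes that were not called (CAPN15 -0.16 ± 0.20, adjusted p = 0.582, and PATZ1 -0.31 ± 0.12, adjusted p = 0.0605). LINC01521 went from 7.80, 5.88, 8.78 and 7.39 CPM to 2.49, 2.80, 4.19 and 4.04 CPM (-1.14 ± 0.22, adjusted p = 0.00262).

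Among the rises, LINC02605 starts 32.0 kb from IL7, a cytokine gene that supports lymphocytes, on the opposite strand. IL7 had 0.107, 0.529, 0.637 and 0.606 CPM in control and 1.11, 1.39, 1.87 and 2.75 CPM in cytokine libraries, and its groups did not overlap (log2 fold change 1.81 ± 0.44, adjusted p = 0.00988). SAMD11, 2912 bases from LINC02593, rose from 29.2 ± 3.38 to 77.0 ± 5.36 CPM (SD, n = 4 each; 1.40 ± 0.12, adjusted p = 1.02e-05). KCTD8, whose start lies 432 kb from that of LINC02475, rose by 0.73 (adjusted p = 0.0441). The other 5 rises had neighbours that were not called.

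UNC5A, a netrin receptor gene whose start lies 67.3 kb from LINC01574, had the largest fall of a neighbour. It gave 306, 287, 182 and 189 CPM in control and 64.5, 63.2, 40.4 and 46.5 CPM in cytokine libraries (log2 fold change -2.15 ± 0.21, adjusted p = 3.18e-05). The largest opposite pair was LINC02777 and JUN, a subunit of the AP-1 transcription factor, with starts 119 kb apart. LINC02777 went from 2.07, 1.97, 1.77 and 1.97 CPM to 0.596, 1.602, 0.886 and 0.864 CPM (-0.99 ± 0.28, adjusted p = 0.0204), and JUN averaged 48.7 ± 10.7 CPM in control and 793 ± 244 CPM in cytokine libraries. These 2 pairs were picked after their values were seen.

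The libraries with different name endings stood apart for many LINC genes. With treatment in the model, 38 of the 175 differed between C and D and A and B (adjusted p below 0.05), 23 lower and 15 higher in C and D, against 11.8% and 25.7% of all listed genes. Library C was the lowest of its group in both conditions for 52 of the genes (29.7%, against 15.3% of all genes at this mean level), and the highest for 16 (9.14%, against 31.1%). What the ending of the name stands for is not given in the sources used here.

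LINC01278 showed this most clearly among abundant genes. It measured 113, 102, 37.7 and 48.7 CPM in control libraries A to D and 105, 107.001, 33.7 and 48.0 CPM in cytokine libraries. The level followed the name ending (-1.36 ± 0.12 for C and D, on the log2 scale) and not the treatment (-0.05 ± 0.44, adjusted p = 0.941). LINC01001 differed most, with 28.2, 23.7, 4.18 and 10.1 CPM in control and 24.6, 26.6, 4.59 and 10.3 CPM in cytokine libraries (-1.92 ± 0.26), and was followed by LINC02887 (-1.68 ± 0.32). These last 2, described after their values were seen, are among the 5 genes with over 50% of shared words, whereas LINC01278 shared none.

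**Figure D5:**
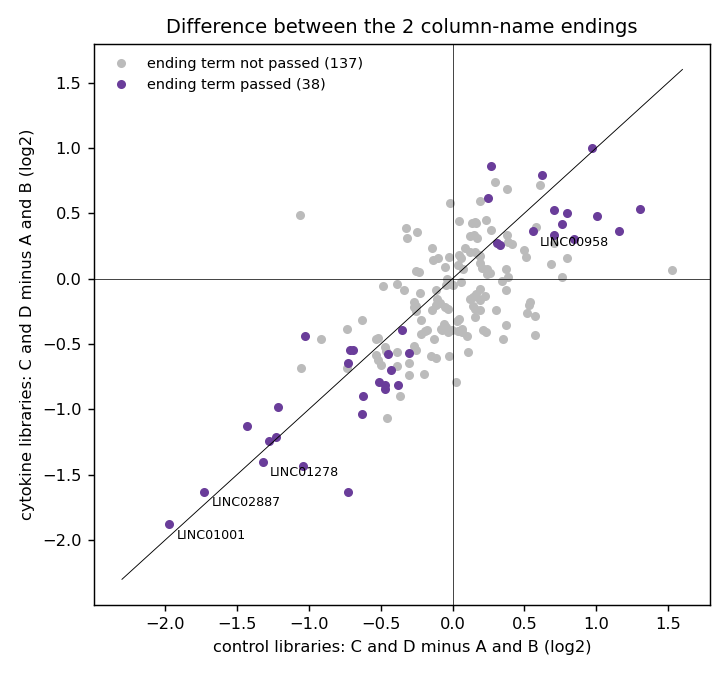
For each of the 175 LINC RNAs the mean log2(CPM + 0.1) of C and D minus that of A and B is plotted in control (horizontal axis) and in cytokine libraries (vertical axis), with the diagonal drawn in black. The 38 genes that passed the test of the ending (purple) have the same sign in both conditions, with LINC01001 at the lower left, and some, such as LINC02616, lie off the diagonal.

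The response to cytokines did not differ detectably between the endings. No LINC gene passed the interaction of treatment and ending in limma (adjusted p below 0.05), 2 had an unadjusted p below 0.05, and 0.0303% of all genes passed. The lowest p-values were those of LINC00649, LINC02100 and LINC01232. LINC00649 went from 4.49, 5.97, 6.21 and 7.12 CPM to 5.68, 8.20, 4.63 and 5.24 CPM, and its responses were 0.39 in A and B and -0.42 in C and D. LINC02100 rose in both, by 4.201 in A and B and by 2.74 in C and D. LINC01232 had 2.44, 3.26, 2.81 and 2.93 CPM in control and 5.58, 5.81, 2.56 and 4.14 CPM in cytokine libraries, and was not called (0.58 ± 0.26, adjusted p = 0.113). It did pass with the replicate block (adjusted p = 0.0177), in edgeR with TMM (adjusted p = 0.0397) and without cytokine library C (adjusted p = 0.0141).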

How the data were processed

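RNA of EndoC-βH5 cells (4 control and 4 cytokine libraries, strand-specific mRNA kit) was sequenced. Per the labels and methods, the authors aligned reads with TopHat2 2.1.1 to GRCh38, counted them with HTSeq 0.9.1 at default settings on Ensembl release 107 genes, dropped genes that did not exceed 0.5 CPM in 4 samples or more, and deposited CPM, read counts divided by the library total (46767972 to 51145634 reads) on a common scale. Of 12 value columns, 4 match no sample here and were not used. All values were whole multiples of 1 read (100%, tolerance 0.001 reads), which gave the reads used as counts.

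The main test, in R 4.3.3, was limma 3.58.1 with its trend option and without a block, on log2(CPM + 0.1), adjusted over 16525 genes. Alternatives were TMM and median-of-ratios scaling, pseudocounts of 0.5 and 1, a filter at a mean of 1 CPM, no trend, edgeR 4.0.16, DESeq2 1.42.0, no fold threshold, a term for the name ending, a replicate block, each library left out, and other limits for membership. The fits were also run on simulated data with known changes. These were drawn without differences between pairs or name endings, so that check does not cover such structure. Pairing came from column names, which give no replicate number. Deviations from the group means correlated by 0.57, 0.59, 0.80 and 0.74 within pairs A to D (14683 genes), although A and B were not told apart (0.57 and 0.59 when crossed). The chi-square between any 2 libraries of the same condition was 5.89 per gene or more, so none is a copy of another in its group. Coordinates and lengths came from GENCODE 29, sequences from RefSeq (GRCh38.p14), and start distances were taken between annotated gene starts. Tables and figures used Python 3.11.15, pandas 2.3.3, scipy 1.17.1 and matplotlib 3.10.9.

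The members and all lists were chosen with earlier results of these data known. Genes named are up to 10 of the largest rises (8 existed) and the 10 largest falls among called genes without overlap, the 8 of highest level, those the study names, the 3 on each side of the 1 CPM limit, the 3 lowest interaction p-values, the 5 called genes nearest a coding start and those near absence in 1 condition. Others are marked.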

Additional observations from a re-analysis of the deposited data

Results flagged for a closer look

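Of 72 groups of 4 libraries (36 named genes, 2 conditions), 6 held a library far from the other three, and chance alone flags about 1 in 20. LINC02605 was at 0 CPM in control library A, against 0.0995 to 0.117 CPM in the others, a gap of a few reads. LINC00595 was lowest in cytokine library C at 0.342 CPM, against 0.532 to 0.563 CPM, and LINC02432 was low in the same library at 25.5 CPM, against 38.8 to 39.0 CPM. LINC01579 was lowest in control library A at 5.73 CPM, against 7.26 to 7.55 CPM. LINC02538 was highest in control library B at 1.31 CPM, against 0.997 to 1.02 CPM. LINC01664 was lowest in cytokine library B at 0.342 CPM, against 0.725 to 0.788 CPM. The causes were not tested.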

How the results depend on the processing

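The count of LINC genes called lower was 50, and 35 to 68 under other scalings, pseudocounts, filters, tools, limits for membership and a term for the name ending, where 11.4% to 22.2% of all genes were called lower (22.2% with the ending term). The count called higher was 9, and 7 to 11 in these, and 12 with the replicate block. Leaving out each library in turn gave 40 to 49 lower and 8 to 10 higher, against 14.5% to 17.7% and 8.32% to 10.3% of all genes. With the replicate block of pairs A to D the count called lower was 80, and with the block on TMM-scaled values, chosen after seeing the data, it was 57 with 13 called higher, against 16.2% and 15.9% of all genes. Without the 16 genes whose exons overlap coding exons and the 4 without an entry, also chosen afterwards, 47 were lower and 8 higher. No gene passed the interaction with the name ending under any of the 3 alternatives to it. Of the 23 named genes that were called, 21 kept their direction and call under all alternatives that could be run, the exceptions being LINC00261 and LINC01664. The 4 genes with changes near 0 turned sign. LINC01278 (-0.05) gave 0.10 with TMM, 0.11 with median-of-ratios, 0.093 with edgeR and TMM, 0.10 with DESeq2 and 0.10 with the block and TMM. LINC02432 (-0.02) gave 0.14, 0.14, 0.16, 0.16 and 0.14 in that order, and 0.00087 with edgeR without TMM. LINC00511 (-0.02) gave 0.14, 0.14, 0.14, 0.15 and 0.14, and LINC00649 (-0.02) gave 0.14, 0.14, 0.17, 0.17 and 0.14. With each library left out in turn, LINC01278 ranged from -0.33 to 0.27, LINC02432 from -0.072 to 0.13, LINC00511 from -0.084 to 0.031 and LINC00649 from -0.18 to 0.091. The replicate block changed 4 calls of single named genes, LINC01232, LINC02731, LINC02193 and LINC01126, all to a call. Depth limits the least abundant genes: LINC02605 and LINC02616 had 0 to 9 reads in control libraries, so the size of their folds is uncertain.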

Other observations

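LINC02904, which was not called (log2 fold change 0.09), has its start 21.2 kb from that of LY6E, an interferon-induced membrane protein gene, on the same strand. LY6E averaged 1.89 ± 0.382 CPM in control and 94.0 ± 20.3 CPM in cytokine libraries (SD, n = 4 each). Its log2 fold change in limma, 5.56 ± 0.19, was the largest among the nearest coding genes of the 171 annotated LINC RNAs. A strongly raised gene nearby was thus not accompanied by a called change of the LINC RNA here, and the gene was chosen after its values were seen. SAMD11, which rose, is also the nearest listed coding gene of LINC01128, LINC00115 and LINC01409. LINC01128 missed the fold threshold at -0.49, and of these 4 LINC RNAs only LINC02593, the closest to SAMD11, was called.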
